A study of Mus musculus and synthetic construct with 15 samples.

Results

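The regions described here are the 184 candidate enhancers, of 3820 in the pool, whose identifier prefix reads exactly vMTF-p300, with no other class tag. The prefix is read as ventricular multi-transcription-factor regions without p300, and since no occupancy data were used here the label itself could not be checked. Each region is 400 bp long. The 184 regions make up 159 numbered elements, and 25 pairs of them are neighbouring tiles that touch end to end without overlap. A further 17 regions carry the same tag beside another one and were not counted as members. A mean of at least 10 counts in the virus DNA, the minimum for a test, was reached by 123 members, and 61 fell below it.

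The pool was packaged in AAV9, an adeno-associated virus that infects heart muscle well, and given to wild-type mice on postnatal day 0. The chambers were taken on postnatal day 7. The labels give 3 groups of 5 libraries: RNA of atrial cardiomyocytes, RNA of ventricular cardiomyocytes, and DNA of the AAV pool itself. Both RNA groups share the genotype, the virus and the day of collection, and the sources used here name no strain, sex or number of animals, nor whether replicates came from separate animals. P-values therefore measure the spread between these libraries, which may be technical. The counts hold reporter regions only, so the chamber and cell type labels could not be checked against marker genes.

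Enhancers are stretches of DNA that raise transcription of genes at a distance when transcription factors bind them. In heart muscle such factors include GATA4, NKX2-5, TBX5, MEF2, SRF and TEAD1, and sites bound by several of them together are often active. p300 is a histone acetyltransferase recruited by many transcription factors and is widely used as a mark of active enhancers. A massively parallel reporter assay reads many candidates at once, by dividing the RNA counted for each sequence by its share of the viral DNA.

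Sequence could be shown only where a region overlaps a promoter window of the RefSeq table for GRCm38.p6, which runs from 250 bases before to 50 after a gene's start and has the coordinates of mm10. 8 members overlapped such a window, each of a long noncoding RNA. A tile near Ptms shared only 26 bases with its window and is not printed, although it is named below. The stretches of 4 others with results below are printed. The first is a region with no protein-coding gene within 100 kb that had more RNA in ventricle than in atrium (chr9:30781398-30781683, minus strand, at the start of Gm31013). The second lies inside Mast4 and had more RNA in atrium (chr13:103096810-103096968, plus strand, upstream of Gm30050). The last 2 are neighbouring tiles inside Bri3 that lay on opposite sides of their DNA (chr5:144258231-144258374 and chr5:144258375-144258530, plus strand). The stretch of the first tile lies upstream of the start of Gm38675, and that of the second tile holds the start. Capitals mark a match to a searched motif.
chr9 region: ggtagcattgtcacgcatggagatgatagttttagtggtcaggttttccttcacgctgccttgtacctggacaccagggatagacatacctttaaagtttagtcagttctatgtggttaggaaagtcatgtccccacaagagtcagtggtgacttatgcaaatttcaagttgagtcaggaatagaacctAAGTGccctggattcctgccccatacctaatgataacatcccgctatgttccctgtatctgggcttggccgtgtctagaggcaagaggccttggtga
Mast4 region: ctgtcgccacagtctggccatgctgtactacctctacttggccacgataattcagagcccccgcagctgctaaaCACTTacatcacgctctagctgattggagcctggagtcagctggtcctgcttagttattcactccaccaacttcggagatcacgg
Bri3 first tile: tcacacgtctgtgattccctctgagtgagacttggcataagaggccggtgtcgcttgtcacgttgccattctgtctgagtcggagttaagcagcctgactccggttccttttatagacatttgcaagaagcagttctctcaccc
Bri3 second tile: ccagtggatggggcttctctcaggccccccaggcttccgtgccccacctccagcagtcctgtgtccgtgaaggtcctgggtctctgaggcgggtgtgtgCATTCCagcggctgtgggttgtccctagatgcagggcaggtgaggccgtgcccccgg
The motifs were searched on both strands: AAGGTCA of estrogen-related receptors, CATTCC of TEAD factors, AGATAA of GATA factors, AAAAATA of MEF2, AAGTG of NKX2-5, AGGTGT of TBX5, and the CArG box of SRF. The chr9 stretch held 1 match, AAGTG, which the same stretch of 44.8% of all promoter windows holds. The Mast4 stretch also held 1 match to AAGTG, on the reverse strand, beside 28.5% of windows. The second Bri3 tile held CATTCC, beside 7.27% of windows, and the first tile held none of the 7 motifs. No marked matches overlap one another. A match is a description of these letters and not evidence of binding.

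Library totals ran from 2312820 to 2958271 counts in DNA, from 1718563 to 2369985 in atrial replicates 2 to 5 and from 2862596 to 3781726 in ventricular replicates 2 to 5. Replicate 1 stood apart, with 877773 counts in atrium and 1271527 in ventricle. Members took 2.02% to 2.12% of the DNA counts, 4.60% to 4.90% of the atrial counts and 5.03% to 5.37% of the ventricular counts. In the replicate 1 RNA libraries 24 and 23 members were at 0, while replicates 2 to 5 had 1 to 7 at 0 for atrium and 0 to 4 for ventricle. The DNA libraries had 25 to 30 at 0. The 19 members with no DNA count in any library had 16 and 7 counts in all in the replicate 1 libraries of atrium and ventricle. In replicates 2 to 5 they had 5395 to 10271 counts in atrium and 9217 to 12739 in ventricle, that is 6.83% to 8.93% and 6.19% to 6.66% of the members' counts. Whether the DNA libraries match the virus behind replicates 2 to 5 was not tested, and the counts over all tested members, those of the spMTF or spP300 group between chambers and those of members too rare in DNA are also given with RNA replicates 2 to 5 alone. In bulk RNA, fewer cells that carry a region and less RNA per cell cannot be told apart.

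The first comparison asks which members were more active in one chamber. Between atrium and ventricle, 18 of the 123 tested members were higher in atrium and 33 were higher in ventricle, that is 14.6% and 26.8%, and 72 did not pass (edgeR quasi-likelihood test with Benjamini-Hochberg adjustment over 2601 regions, adjusted p under 0.05). Over all regions tested, 15.8% passed towards atrium and 15.1% towards ventricle. The median log2 ratio of atrium over ventricle was -0.18 among members, with an interquartile range of -0.57 to 0.27, and 0.03 among all regions tested. Differences of at least 2-fold were called for 7 members in each direction, beside 4.88% of all regions towards atrium and 3.04% towards ventricle. The 5 atrial and 5 ventricular libraries did not overlap for 15 members with the higher values in atrium and 24 with the higher values in ventricle, beside 10% and 13% of all regions. With replicates 2 to 5 alone, 17 members passed towards atrium and 22 towards ventricle, beside 15% and 12.6% of all regions. With scaling factors computed on the regions of the group Neg, which shifted the all-region median by 0.15, 22 members (17.9%) passed towards atrium and 19 (15.4%) towards ventricle, beside 21.6% and 9.11% of all regions. The members' median was then -0.03, against 0.18 over all regions.

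Most of the surplus towards ventricle came from members with 1 value of the group column. The column gives each region as MTF or P300 (117 members, 80 tested), spMTF or spP300 (44 members, 26 tested), TF3-4 (20 members, 15 tested) or TF1-2 (3 members, 2 tested), and the sources used here do not define these values. Of the 26 tested spMTF or spP300 members, 14 were higher in ventricle and 1 in atrium, and 22 of the 26 ratios were below 0, with a median log2 ratio of -0.69. The 97 tested members of the other groups gave 17 higher in atrium and 19 higher in ventricle, with a median of -0.04. In the rest of the series, 494 tested spMTF or spP300 regions gave 83 higher in atrium and 88 in ventricle, with a median of 0.04. With replicates 2 to 5 alone the 26 gave 1 towards atrium and 10 towards ventricle, with a median of -0.66, and the 494 gave 77 and 78. With factors from the Neg regions the 26 gave 2 and 9, with a median of -0.54, and the 494 gave 120 and 61, with a median of 0.20. The difference between the groups was read from counts and medians and was not tested.

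The direction of the calls also moved with the abundance of a region in DNA. Of the 26 tested spMTF or spP300 members, 16 had a mean of 10 to under 100 DNA counts, 6 had 100 to under 300, and 4 had more. The counts higher in ventricle were 7, 4 and 3 in these bands, with median log2 ratios of -0.68, -0.57 and -0.81, and the single member higher in atrium lay in the highest band. Over all groups, the 50 members in the lowest band gave 1 higher in atrium and 14 in ventricle, the 33 in the middle band 7 and 10, and the 40 in the highest band 10 and 9. All regions of the series gave 53 and 104 of 854 in the lowest band, 69 and 97 of 570 in the middle band and 290 and 191 of 1177 in the highest. The part that DNA abundance plays in the members' split was not tested.

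Among the spMTF or spP300 members higher in ventricle, the region inside Scube2, which encodes a secreted protein that helps release Hedgehog ligands, moved most (chr7:109808102-109808501). Its CPM values (counts scaled for library size, on the same scale in all 15 libraries) were 48.9, 60.6, 91.2, 68.9 and 62.9 in atrial replicates 1 to 5 and 180, 185, 186, 150 and 138 in ventricular ones. Every ventricular library lay above every atrial one. The log2 ratio of atrium over ventricle was -1.31 ± 0.20 (SE), with an adjusted p of 0.00011 by edgeR's quasi-likelihood test. The DNA libraries averaged 36.6 ± 7.16 CPM (SD, n = 5), so that the region was above its DNA in both chambers, by 0.75 ± 0.22 and 2.19 ± 0.16 on the log2 scale.

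A region 88.0 kb from S1pr1 had the highest ratios to DNA of all tested members in both chambers. S1pr1 encodes a receptor for the lipid sphingosine 1-phosphate. Atrial CPM were 158, 287, 278, 293 and 318, ventricular CPM 535, 719, 719, 608 and 634, and DNA CPM 9.34, 7.15, 9.35, 5.53 and 6.05 (chr3:115622269-115622668). The 3 groups did not overlap, and replicate 1 was the lowest library of each chamber. The log2 ratio of atrium over ventricle was -1.25 ± 0.16, and the mean of 16.0 DNA counts per library lies just above the minimum for a test.

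The region at chr19:14225071-14225470, with no protein-coding gene within 100 kb, had a narrower spread. It gave 449, 517, 425, 509 and 534 CPM in atrium and 1124, 1139, 1271, 1151 and 1165 CPM in ventricle. The groups lay well apart, with a log2 ratio of -1.25 ± 0.09 and an adjusted p of 4.1e-08 by edgeR's quasi-likelihood test. Its DNA averaged 131 ± 16.2 CPM (SD, n = 5), and it was above DNA by 1.79 ± 0.11 in atrium and 3.16 ± 0.09 in ventricle.

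The chr9 region, whose sequence is printed above, was the most abundant in DNA of the spMTF or spP300 members higher in ventricle, with a mean of 1033 DNA counts per library (chr9:30781284-30781683). Atrial CPM were 295, 397, 455, 464 and 457 and ventricular CPM 870, 722, 667, 696 and 778, against 478, 526, 366, 537 and 485 in DNA. All ventricular libraries were above all others, while the atrial libraries overlapped the DNA. The log2 ratio of atrium over ventricle was -0.83 ± 0.13, and -0.66 in replicates 2 to 5. Ventricle was above DNA by 0.64 ± 0.10, and atrium over DNA, at -0.32 ± 0.14, did not pass the test.

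Other members of this group also favoured ventricle. The region 76.5 kb from Stmn4, a member of the stathmin family that destabilises microtubules, averaged 294 ± 46.6 CPM (SD, n = 5) in atrium and 586 ± 37.6 in ventricle, with a log2 ratio of -0.98 ± 0.12 and no overlap. The region at chr3:149353937-149354336 averaged 266 ± 31.6 and 453 ± 35.8 CPM, with a log2 ratio of -0.75 ± 0.12. The other 8 lay near or within Rabgap1l, Gm2115, Nipsnap2, Phactr3 and Pde1c and at chr6, chr11 and chr14, with ratios between -0.81 and -0.36. Of the 14 members, 13 were above DNA in ventricle and 12 were above DNA in atrium. Among the 26 tested members of the group it was 20 and 18, and over all regions of that group 46.7% and 39.8%. The comparisons with DNA share RNA libraries with the calls between chambers, so these counts describe levels. In all 5 same-numbered pairs, 12 of the 14 kept the direction. The Pde1c region, in a gene for a cyclic nucleotide phosphodiesterase, was lower in ventricle in replicate 1, with 129 against 105 CPM, and higher in ventricle in the other 4. With replicates 2 to 5 alone 9 of the 14 passed. These counts by replicate use libraries on which the 14 were called and are not separate support. The Phactr3 region, in a gene for an actin-binding regulator of phosphatases, lost its call with the replicate number as a block (adjusted p of 0.0604 by edgeR's quasi-likelihood test).

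The single spMTF or spP300 member higher in atrium lay at chr10:21636629-21637028 and had no protein-coding gene within 100 kb. Atrial CPM were 132, 140, 144, 91.2 and 157 and ventricular CPM 97.4, 62.4, 78.8, 110 and 87.6. The groups overlapped, since atrial replicate 4 lay below ventricular replicates 1 and 4. The log2 ratio was 0.62 ± 0.21, with an adjusted p of 0.0307 by edgeR's quasi-likelihood test.

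Members of the other groups that were higher in ventricle included the largest difference called in either direction. The region at chr7:68478186-68478585, of the group TF3-4 and with no protein-coding gene within 100 kb, gave 147, 159, 150, 136 and 115 CPM in atrium and 501, 419, 398, 411 and 382 CPM in ventricle. No libraries overlapped, and the DNA, at 59.9 ± 11.5 CPM (SD, n = 5), lay below both chambers. The log2 ratio of atrium over ventricle was -1.56 ± 0.13, with an adjusted p of 3.7e-07 by edgeR's quasi-likelihood test.

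Regions within a pair of related genes, Lrrfip1 and Lrrfip2, which encode leucine-rich repeat proteins that bind Flightless I, were both higher in ventricle. The Lrrfip1 region (chr1:91015540-91015939) gave 979, 805, 919, 896 and 891 CPM in atrium and 2499, 2095, 1950, 2031 and 2115 CPM in ventricle, for a log2 ratio of -1.24 ± 0.08. The Lrrfip2 region (chr9:111207720-111208119) was far weaker, with 18.7 ± 7.16 CPM (SD, n = 5) in atrium and 46.4 ± 9.08 in ventricle, for a log2 ratio of -1.28 ± 0.34. The ratios were close while the levels differed, and the Lrrfip2 ratio rests on a mean of 17.2 DNA counts per library. The region at chr15:69303080-69303479 had a log2 ratio of -1.03 ± 0.18, and one inside Arhgap26 (chr18:39004534-39004933), of -0.83 ± 0.18, both without overlap between the chambers.

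Of the 33 members higher in ventricle, 32 were above their DNA in ventricle and 30 also in atrium, while 10 of the 18 higher in atrium were below their DNA in ventricle. Over all 123 tested members, 67.5% were above DNA in ventricle and 26.0% below, and 61.8% were above DNA in atrium. These comparisons share RNA libraries with the one between chambers, so the counts are a description of levels. The shares over all regions called in the same direction between chambers are not given here. The 33 and the 18 were called on all 5 replicates of each chamber, so the counts by replicate that follow describe those calls. They are not separate support. All 33 kept their sign in replicates 2 to 5, 32 had it in replicate 1, and 31 had it in all 5 same-numbered pairs. Of the 18 higher in atrium, all had the same sign in replicate 1, 16 passed in replicates 2 to 5 and 15 held in all 5 pairs, against 21 of 33 passing in replicates 2 to 5 among those higher in ventricle.

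The members higher in atrium were led by 2 regions that lay, with the main scaling, above DNA in atrium and below it in ventricle. Scaling by library totals raised the median of ventricle over DNA over all regions by 0.37. Whether these 2 regions stay below DNA in ventricle with that scaling is not given here. The region 26.7 kb from Ryr2, the calcium release channel of the sarcoplasmic reticulum (chr13:12133447-12133846), gave 691, 530, 378, 503 and 940 CPM in atrium, 267, 224, 206, 177 and 201 in ventricle and 287, 286, 365, 270 and 301 in DNA. On this CPM scale all atrial libraries were above all others, and the ventricular libraries lay below every DNA library, although only just for replicate 1. The log2 ratio of atrium over ventricle was 1.52 ± 0.21, with an adjusted p of 7.3e-05 by edgeR's quasi-likelihood test. The ratios to DNA were 0.91 ± 0.20 in atrium and -0.49 ± 0.12 in ventricle.

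The second is 1.88 kb from the predicted gene Gm33099 (chr11:98342579-98342978). It gave 224, 193, 114, 202 and 375 CPM in atrium and 90.2, 45.9, 96.5, 89.5 and 62.4 in ventricle, so that the chambers did not overlap although the atrial values spread widely. The log2 ratio was 1.54 ± 0.29, the largest towards atrium. Its DNA averaged 123 ± 23.9 CPM (SD, n = 5), with ratios of 0.73 ± 0.26 in atrium and -0.68 ± 0.20 in ventricle.

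A tile inside Kdm6b, the gene of a demethylase that removes the repressive H3K27 methyl mark, combined a chamber difference with high activity in both chambers (chr11:69418053-69418452). It gave 748, 533, 589, 450 and 750 CPM in atrium and 254, 228, 268, 205 and 295 in ventricle, against 37.0 ± 7.59 in DNA (SD, n = 5). The log2 ratio of atrium over ventricle was 1.31 ± 0.15, with an adjusted p of 7.2e-06 by edgeR's quasi-likelihood test. A region inside Tead1, a transcription factor of the Hippo pathway that also binds muscle promoters, showed the same order at a smaller size (chr7:112753793-112754192). It averaged 340 ± 21.1 CPM in atrium, 223 ± 42.3 in ventricle and 67.0 ± 9.34 in DNA (SD, n = 5), and its log2 ratio was 0.63 ± 0.14.

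Several other members higher in atrium were not above their DNA there. The region inside Jph2, whose protein junctophilin holds the sarcoplasmic reticulum close to the T-tubules (chr2:163353562-163353961), averaged 267 ± 86.9 CPM in atrium and 118 ± 39.0 in ventricle against 608 ± 42.2 in DNA (SD, n = 5). Its log2 ratio of atrium over ventricle was 1.20 ± 0.26, while both chambers were below DNA, at -1.29 ± 0.17 and -2.36 ± 0.19. The Mast4 region with its sequence above gave 206, 162, 192, 227 and 490 CPM in atrium and 108, 122, 137, 117 and 107 in ventricle, and the means of both chambers, 255 and 118 CPM, were below the DNA mean of 382. Replicate 5 stood above the other atrial libraries, and the groups did not overlap without it either. Regions 52.0 kb from Igfbp7, a secreted binding protein of insulin-like growth factors, and 2.12 kb from Hif1a, the oxygen-regulated transcription factor, had log2 ratios of 1.12 ± 0.27 and 0.99 ± 0.21. The region inside Dlc1 had 0.65 ± 0.15, and in atrium these 3 did not pass against DNA. The region inside Ehbp1, which links endocytosis to actin, had the same ratio of 0.65 ± 0.15 but was above DNA in both chambers, by 2.16 ± 0.12 and 1.63 ± 0.15.

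Of the 15 tested TF3-4 members, 5 were higher in atrium, namely the Kdm6b, Mast4, Igfbp7 and Hif1a regions and the first Bri3 tile, and 2 were higher in ventricle. Over all 214 tested TF3-4 regions, 19.6% passed towards atrium and 12.1% towards ventricle. The members' median log2 ratio was 0.31, against 0.12 for the 214, and their group held both the largest ventricular difference and 4 of the 10 leading atrial ones. The 80 MTF or P300 members gave 12 higher in atrium and 16 in ventricle, with a median of -0.07, beside 20.3% and 16.2% of all 1170 regions of that group, with a median of 0.08. The 15 tested members with no protein-coding gene within 100 kb gave 1 higher in atrium and 8 in ventricle, with a median of -0.37, beside 13.7% and 17.5% of 234 such regions in the series, with a median of -0.08.

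The split can be set beside those of the classes most like it. Regions with the prefix vMTF+p300 gave 41 higher in atrium and 105 in ventricle of 349, with a median of -0.16, and their 84 spMTF or spP300 regions gave 4 and 35, with a median of -0.41. The atrial counterpart aMTF-p300 gave 22 and 15 of 137, with a median of 0.10, and its 25 spMTF or spP300 regions gave 9 and 1. Regions tagged ESC-Neg gave 22 and 70 of 540, with a median of -0.12. These are descriptions of unequal lists, and no difference between classes was tested.

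Against the virus DNA, a ratio above 0 on the log2 scale means more RNA per DNA than the bulk of all tested regions, whatever their DNA level. In atrium 76 of the 123 members were above DNA and 23 below, that is 61.8% and 18.7%, beside 38.4% and 36.3% of all regions tested, with a median of 1.06 against 0.04. Ratios of at least 2-fold passed for 61 above and 15 below, beside 28.1% and 20.9%. In ventricle 83 were above and 32 below, that is 67.5% and 26.0%, beside 43.4% and 37.8%, with a median of 1.43 against 0.13. Here at least 2-fold passed for 70 and 18, beside 31.6% and 21.5%. In both chambers 72 members were above and 23 below, 11 were above in ventricle alone and 4 in atrium alone, of which 2 were below in ventricle. With replicates 2 to 5 alone the counts were 78 and 26 in atrium, beside 38.8% and 37.1% of all regions, and 82 and 32 in ventricle, beside 42.4% and 39.8%. The other class without p300, aMTF-p300, gave medians of 0.36 and 0.41, vMTF+p300 0.71 and 0.84, and ESC-Neg -0.28 and -0.08.

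The ratios to DNA fell with DNA abundance among members as among all regions. For atrium the medians of the members were 1.66, 1.15 and 0.01 from the lowest to the highest DNA band, beside 1.21, 0.20 and -0.66 over all regions. For ventricle they were 2.31, 1.60 and -0.30, beside 1.43, 0.28 and -0.69. A count of DNA enters the ratio and sets the band, so ratio and band are not independent. In the highest band 17 members were above and 16 below DNA in atrium and 18 and 21 in ventricle, of 40. Over all regions in that band, 20.1% were above and 61.1% below in atrium, and 23.4% and 63.7% in ventricle. By group, the 26 spMTF or spP300 members had 18 above and 2 below in atrium and 20 and 3 in ventricle, beside 39.8% and 33.5% and 46.7% and 34.8% of all regions of that group. The 80 MTF or P300 members had 49 and 17 in atrium and 53 and 23 in ventricle, beside 46.4% and 32.6% and 48.9% and 35.8%.

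Among members whose RNA libraries did not overlap the DNA, the strongest in ventricle after the S1pr1 region were the chr3:149353937-149354336 region, at 4.70 ± 0.23 over DNA, and regions inside Htr2a and near N6amt1. The Htr2a region, in the gene of a serotonin receptor, gave 128, 108, 162, 108 and 129 CPM in atrium and 248, 216, 182, 149 and 177 in ventricle, against 7.75 ± 2.42 in DNA (SD, n = 5). It was above DNA by 3.91 ± 0.25 and 4.63 ± 0.21, and its chambers overlapped. The region 46.9 kb from N6amt1, a methyltransferase gene, was above DNA by 3.87 ± 0.20 and 4.61 ± 0.14. A region inside the carboxylesterase gene Ces1e had 3.86 ± 0.21 and 4.37 ± 0.15, and one inside Cdh2, which encodes N-cadherin of the junctions between heart muscle cells, had 3.36 ± 0.19 and 3.86 ± 0.14. All of these rest on means of under 100 DNA counts per library.

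The region 47.7 kb from Rasl11b, a small Ras-like GTPase gene, combined high activity with abundant DNA (chr5:74147460-74147859). It gave 3064, 3205, 3463, 3889 and 3096 CPM in atrium, 3925, 3702, 3828, 3893 and 4228 in ventricle and 245 ± 13.9 in DNA (SD, n = 5). Both chambers were far above DNA, by 3.66 ± 0.10 and 4.0 ± 0.08, and their own difference was small, at -0.21 ± 0.07, with overlapping libraries, and did not pass in replicates 2 to 5 (adjusted p of 0.131 by edgeR's quasi-likelihood test). A higher RNA level was found only for the region 14.8 kb from Col4a1, a basement membrane collagen gene, among the 123 tested, and it was chosen after its values were seen. It averaged 5278 ± 570 CPM (SD, n = 5) in atrium and 5128 ± 333 in ventricle, and atrium over ventricle, at 0.06 ± 0.08, did not pass.

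In 2 regions near Zfp36l1 and inside Il17rd the level in replicate 1 was far from that in the other replicates of the same chamber. The region 45.8 kb from Zfp36l1, which encodes an RNA-binding protein of mRNA decay, gave 177, 1163, 1257, 1278 and 1265 CPM in atrium and 171, 893, 913, 837 and 824 in ventricle, while its DNA stayed between 27.4 and 38.5. Replicate 1 was low in both chambers by a similar factor. Its ratio to DNA was 4.84 ± 0.50 in atrium and 4.46 ± 0.47 in ventricle over all replicates. Atrium over ventricle, at 0.52 ± 0.60, did not pass, but it did with the replicate number as a block (adjusted p of 0.00156 by edgeR's quasi-likelihood test). The region inside Il17rd, a receptor-like gene that restrains FGF signalling, had 0 and 1 counts in replicate 1 of atrium and ventricle. In the other replicates it had 217 to 381 and 319 to 386 CPM, for ratios to DNA of 5.02 and 5.39 in replicates 2 to 5.

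At the other end, a few members made almost no RNA. The region inside Atoh8, a gene of a basic helix-loop-helix factor, had 9 counts in all 5 atrial libraries together and 12 in ventricle, against 149 in DNA. Scaled for depth, DNA exceeded atrium 13.4-fold (95% interval 6.88 to 29.9) and ventricle 16.2-fold (9.01 to 32.1). The region inside Rai1 had 16, 22 and 168 counts, for 8.50-fold (5.09 to 15.2) and 9.97-fold (6.37 to 16.3). These intervals are exact, pool the libraries and cover counting error only. The region at chr8:90656008-90656407 was low relative to abundant DNA, with 841 ± 221 CPM in atrium and 903 ± 426 in ventricle against 4255 ± 692 in DNA (SD, n = 5), and replicate 1 was its highest library in both chambers.

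Some neighbouring tiles of one element differed in activity. Of the 25 touching pairs, both tiles were tested in 11. In atrium both tiles passed in the same direction in 5 pairs and in opposite directions in 4, and in ventricle in 5 and 5. Pairs that share the middle Kdm6b tile count among the opposite ones in both chambers, so the pairs are not independent. Taken singly, 61.8% of tested members were above DNA and 18.7% below in atrium, and 67.5% and 26.0% in ventricle. How often or how far pairs of unrelated regions differ was not computed. The median absolute difference between the tiles was 1.02 in atrium over DNA, 1.64 in ventricle over DNA and 0.52 in atrium over ventricle. No pair had both tiles called between chambers.

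The Bri3 pair, printed above, is an example of opposite tiles; Bri3 encodes a small membrane protein. The first tile (chr5:144257975-144258374) gave 449, 430, 414, 349 and 358 CPM in atrium, 316, 280, 288, 250 and 243 in ventricle and 157 ± 11.4 in DNA (SD, n = 5). It was above DNA in both chambers, by 1.24 ± 0.11 and 0.81 ± 0.10, and higher in atrium, by 0.55 ± 0.12. The second tile (chr5:144258375-144258774) gave 135, 47.0, 63.6, 65.1 and 156 CPM in atrium and 104, 55.1, 102, 38.1 and 95.5 in ventricle, against 497 ± 59.9 in DNA. It was below DNA by a log2 ratio of -2.53 ± 0.30 and -2.67 ± 0.27, with overlapping chambers.

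Kdm6b carried 3 tiles in a row that alternated. In ventricle the first and last were above DNA, by 1.33 ± 0.20 and 2.76 ± 0.16, and the middle one below, at -1.24 ± 0.16. In atrium the order was the same, at 0.57 ± 0.22, -1.41 ± 0.21 and 3.96 ± 0.19. Between chambers the last tile was higher in atrium as given above, the middle one differed by -0.04 ± 0.27, and the first, at -0.63 ± 0.23, passed only with the replicate number as a block (adjusted p of 0.035 by edgeR's quasi-likelihood test). The N6amt1 pair shared a direction, with 4.61 ± 0.14 and 2.37 ± 0.24 over DNA in ventricle, and the second Jph2 tile was below DNA like the first, at -1.10 ± 0.15 and -1.06 ± 0.14. The tile next to the called Mast4 region was level with its DNA in ventricle, at -0.05 ± 0.14, and its ratio between chambers, 0.33 ± 0.26, did not pass. The pair near Ptms, the parathymosin gene, split again, with 0.93 ± 0.08 for one tile and -0.62 ± 0.21 for the other.

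By position, 88 members lay inside a protein-coding gene, 65 lay outside one but within 100 kb, and 31 had none in reach, with 121 distinct genes in all. The nearest gene is a label by position and not a measured target. Of 18 calcium handling and channel genes, Jph2, Ryr2, Kcnq1 and Slc8a1 had 7 members, of which 4 were tested. The Ryr2 and first Jph2 regions, 2 of the 4, were higher in atrium and none was higher in ventricle. Over all regions tested, 15.8% passed towards atrium and 15.1% towards ventricle. With 4 tested regions, these counts describe single regions and not the gene list. The Kcnq1 region, in the gene of a potassium channel that repolarises heart muscle, averaged 1044 ± 128 CPM (SD, n = 5) in atrium and 967 ± 49.4 in ventricle, and the chambers overlapped.

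None of 24 sarcomere genes, 23 atrial genes or 20 genes of other cell types lay nearest to a member. Of 31 ventricular genes, Ppargc1a, Fhl2 and Rbm20 had 1 member each, and 2 were tested. The Ppargc1a region, in the gene of a coactivator of mitochondrial biogenesis, had a log2 ratio of atrium over ventricle of -0.25 ± 0.22 (adjusted p of 0.432 by edgeR's quasi-likelihood test), and the Fhl2 region had -0.16 ± 0.08 (0.186). Of 22 cardiac transcription factor genes only Tead1 had a member, and of 27 energy metabolism genes Fabp3 and Ppargc1a had 1 tested member each. The Fabp3 region, 9.36 kb from the gene of the heart fatty acid-binding protein, gave 22.9, 2.97, 6.14, 36.6 and 12.8 CPM in atrium and 35.6, 30.1, 25, 35.1 and 30.0 in ventricle. Its ratio of -0.93 ± 0.50 did not pass, with overlapping libraries, and passed with the replicate number as a block (adjusted p of 0.0444 by edgeR's quasi-likelihood test).

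Of the 61 members too rare in DNA for the test, 44 had a mean of at least 10 RNA counts and could be compared between chambers. None was higher in atrium and 4 were higher in ventricle, beside 1.09% and 2.57% of the 1010 such regions of the series, by edgeR's quasi-likelihood test. At an unadjusted p under 0.05 it was 2 and 6 of the 44. The share of the 1010 regions at that threshold is not given here, so these 2 counts have no background. The 4 called higher in ventricle included the regions at Lama2 (-0.69 ± 0.21), Rbm20 (-0.64 ± 0.19) and chr17:76849768-76850167 (-0.51 ± 0.12), chosen here because they passed. Lama2 encodes a laminin chain, and Rbm20 encodes a splicing regulator of titin. The median ratio of the 44 was -0.28, against -0.16 for the 1010. Some of these members were at 0 in replicate 1 and not in the other replicates. Over all replicates their standard errors could be large, at 1.33 for the Smim3 region and 1.22 for the one at chr13:71328148-71328547. The test over all replicates could hardly call such members, so the lack of calls towards atrium says little about them. With replicates 2 to 5 alone and a mean of at least 10 counts in those libraries, a comparison added after the data were seen, 3 of 45 passed towards atrium and 7 towards ventricle, beside 5.87% and 11.5% of 1022 such regions. The Lama2 region passed again, at -0.84 ± 0.23, and those at Rbm20 and chr17 did not. The region at Smim3 (chr18:60458735-60459134) was at 0 in both replicate 1 libraries and otherwise gave 394, 456, 439 and 389 CPM in atrium and 829, 807, 850 and 924 in ventricle, without overlap. Its ratio was -0.96 ± 0.10 in replicates 2 to 5.

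The 19 members with no DNA count in any library ranged widely in RNA. In replicates 2 to 5 their mean levels ran from 0.149 to 3152 CPM in atrium, with a median of 23.5, and from 0.299 to 2486 CPM in ventricle, with a median of 22.7. The highest was the region inside Akap6, the gene of an anchoring protein of the nuclear envelope and sarcoplasmic reticulum in muscle, with 3152 ± 497 and 2486 ± 133 CPM (SD, n = 4). 16 of the 19 were at 0 in both replicate 1 RNA libraries, and 12 had more than 3 counts in every RNA library of replicates 2 to 5. A ratio to DNA has no meaning for them. In the comparison of chambers with replicates 2 to 5 alone 14 were tested by edgeR's quasi-likelihood test, and 2 were higher in atrium and 2 in ventricle, beside 4.58% and 11.3% of 415 regions without DNA. The Akap6 region had a log2 ratio of 0.41 ± 0.10, although its chambers overlapped. The region at chr13:71328148-71328547 gave 141, 179, 119 and 308 CPM in atrial replicates 2 to 5 and 56.5, 81.2, 53.0 and 100.3 in ventricular ones, without overlap, for a ratio of 1.42 ± 0.30. Those higher in ventricle were at Trim37, with -1.45 ± 0.32, and at chr12:97517502-97517901, with -1.03 ± 0.20, and neither had overlapping chambers.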

How the data were processed

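Counts per region came from 5 atrial RNA, 5 ventricular RNA and 5 AAV DNA libraries. The deposited values are whole-number counts, not normalised by the authors. Per the submitters' processing notes, the tools were cutadapt 2.5 and Bowtie2 2.3.4.3, and the build was mm10. Per the labels' protocols, the copying primer had a molecular identifier. Whether reads or molecules were counted is not stated in those sources, and intervals cover counting error only. The series table and the sample files held the same counts, with 0 differing values.

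Each comparison used edgeR 4.0.16 in R 4.3.3 (robust quasi-likelihood, TMM factors) on its 5 and 5 libraries, on the 2601 regions averaging at least 10 DNA counts, with Benjamini-Hochberg adjustment and calls at an adjusted p under 0.05. Standard errors were derived from fold change and F. DESeq2 1.42.0, other scalings, filters and left-out libraries were alternatives. CPM use TMM factors over all 15 libraries. The fitting script was tested on simulated data.

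The nearest gene is the protein-coding gene body closest to a region's midpoint within 100 kb in RefSeq GRCm38.p6, with ties to the shorter gene; introns, exons and strand were not told apart. Positions are 1-based in mm10. No genome was used here, so motifs were searched only in RefSeq promoter windows. Members named are, between chambers, up to 10 with the largest change in each direction among those that passed without overlap, against DNA up to 8 highest and 4 lowest, and any that passed near a listed gene; others were chosen after their values were seen. 1 region that passed is not reported here and stays in all counts. The members and gene lists were chosen with earlier results of these data known.

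Atrial and ventricular libraries of the same number had correlations of 0.225 to 0.819, all over 0.1, and the numbers were taken to pair them. Replicate 1 alone stood out. Same-numbered libraries among replicates 2 to 5 reached at most 0.241, and differently numbered ones 0.135 to 0.27, also over 0.1. Of the 5 atrial libraries, 2 correlated best with their own number. For replicates 2 to 5 the pairing is therefore an assumption. Counts over same-numbered pairs and results with the block rest on it. No replicate pair agreed within sampling noise, with chi-square per degree of freedom of at least 1.79 in DNA, 17.7 in atrium and 12.7 in ventricle.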

Additional observations from a re-analysis of the deposited data

Results flagged for a closer look

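In 74 groups of 5 libraries for 31 named regions, 1 library stood far from the other 4 in 9 groups by Dixon's criterion, which chance meets in about 1 of 20 groups. 3 of the 9 were replicate 1 RNA libraries. The Zfp36l1 region had 176.8 CPM in atrial replicate 1 and 170.9 in ventricular replicate 1, against at least 1163 and 823.6 in the others. The S1pr1 region had 158.1 CPM in atrial replicate 1, and the others had 278 or more. The Mast4 region had 489.6 CPM in atrial replicate 5, and the others had at most 227. The chr15 region had 155.2 CPM in atrial replicate 2, against 90.2 to 94.0. The chr19 region had 1271 CPM in ventricular replicate 3, against 1124 to 1165, and the Cdh2 region had 452.9 CPM in ventricular replicate 5, against 514.8 to 536.1. In DNA, the Htr2a region had 11.98 CPM in replicate 4 and the chr8 region had 5453 CPM in replicate 3, both above the others.

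With the main scaling the Ryr2 and Gm33099 regions passed above DNA in atrium and below DNA in ventricle. The direct test between chambers gave log2 ratios of 1.52 and 1.54. Of the 19 members with no DNA count, 12 had more than 3 counts in every RNA library of replicates 2 to 5, while 16 of the 19 were at 0 in both replicate 1 RNA libraries.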

How the results depend on the processing

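The 44 results that the naming rule picked all kept their direction and their side of the threshold in the 829 values computed under the alternatives. That rule takes members that had passed without overlap and with the largest changes, so their stability follows in part from the selection. Of all calls between chambers, 16 of 18 towards atrium and 21 of 33 towards ventricle passed in replicates 2 to 5 alone, and a block changed other calls named above. Members higher in ventricle than atrium numbered 33, and 19 with factors from the Neg regions, beside 15.1% and 9.11% of all regions tested. Above DNA in atrium there were 118 of 184 with no filter and 49 of 73 at a mean of at least 100 DNA counts. Below DNA there were 15 with library totals, beside 23.1% of all regions tested, and 14 at the higher minimum. Above DNA in ventricle there were 129 with no filter and 47 at the higher minimum, and below DNA 19 at the higher minimum. Both changes in filter alter how many members are tested. For these filters, DESeq2, the single fit, the left-out libraries and the block, shares over all regions are not given here. The counts under those settings therefore do not show whether the members alone moved. Members of the spMTF or spP300 group higher in ventricle numbered 9 with factors from the Neg regions and 7 of 10 at the higher minimum; those higher in atrium numbered 2 with DESeq2, with factors from the Neg regions and with 1 fit over all 15 libraries. Apart from the filters, the cause was not tested. Leaving out 1 library at a time gave 15 to 18 higher in atrium and 26 to 37 in ventricle, 75 to 79 above and 19 to 26 below DNA in atrium, 81 to 82 and 29 to 32 in ventricle, and in the spMTF or spP300 group 11 to 15 higher in ventricle and 0 to 1 in atrium. With the replicate number as a block there were 17 and 36 calls between chambers, 73 and 23 for atrium over DNA and 82 and 31 for ventricle over DNA; beyond those given above, Col13a1 and Iqsec3 lost their calls between chambers and Cnksr3 and Rfx7 gained one. Library totals and factors from the Neg regions shifted the all-region median by 0.48 and 0.40 in atrium over DNA and by 0.37 and 0.13 in ventricle over DNA. By depth, 61 members were too rare in DNA to be tested.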
